A study of Mus musculus with 12 samples.

Results

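The clustered histone genes of the mouse were compared between Smchd1 null and Smchd1 wildtype premalignant pre-B cells. Members were all microarray probes whose symbol begins with HIST1H, HIST2H, HIST3H or HIST4H, whether or not a signal was detected: 89 of the 45281 probes of the array, which carry 59 of its 30774 symbols. The 6 null samples were homozygous for a genetrap allele of Smchd1, which encodes a chromosomal protein of the SMC hinge family involved in gene silencing, and the other 6 samples were wildtype at this locus. All 12 samples were C57BL/6 and carried the Eµ-Myc transgene, in which the immunoglobulin heavy-chain enhancer drives Myc in B-lineage cells, so the cells of both genotypes already overexpressed an oncogene. The cells were sorted from fresh tissue, and their RNA was amplified and hybridised to Illumina expression BeadChips. Ages are not given in the sources used here, nor is it said whether every sample was taken from a different mouse; the tests therefore use the variation among these 12 arrays, which may be partly technical.

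Histones package DNA into nucleosomes: an H3-H4 tetramer and H2A-H2B dimers form the core, and H1 binds the linker DNA. Most of their genes lie in clusters and are transcribed mainly in S phase, when new chromatin is assembled. Their mRNAs end in a stem-loop instead of a poly(A) tail in dividing cells, with polyadenylated forms known for some members. The labels name a MessageAmp kit for the amplification, a method that primes on poly(A), and which mRNA form each probe read was not tested. Core histone genes of a type are known to be near-identical in coding sequence, H1 subtypes less so, and a probe named for a core histone gene may also have read its paralogs. A lower level in sorted bulk cells cannot be told apart from fewer cells of a type. All 59 symbols matched a gene of the RefSeq table for GRCm38.p6: 46 in cluster 1 on chromosome 13, 9 in cluster 2 on chromosome 3, 3 in cluster 3 on chromosome 11 and 1, Hist4h4, on chromosome 6. By histone type the probes numbered 7 for H1, 24 for H2A, 20 for H2B, 18 for H3 and 20 for H4.

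The RefSeq promoters, which run from 250 bases before to 50 bases after a gene's start, were available for 53 of the 59 symbols (54 promoters, GRCm38.p6). They show what the members share in sequence, apart from any measured level. The letters CCAAT, searched on both strands, occurred in 85.2% of the histone promoters against 37.4% of all 32851 promoters in the table. They were in all 6 H1, all 17 H2A, all 13 H2B and all 7 H3 promoters, but in 3 of 11 H4 promoters. TATAAA occurred in 57.4% of histone promoters against 13.6% of all. The octamer ATTTGCAT, the site known for the POU factor Oct1 in histone promoters, occurred in 25.9% against 1.74% of all, in 7 of 17 H2A and 7 of 13 H2B promoters and in no H1, H3 or H4 promoter of this window. AAACACA, known as the H1 box, occurred in 5 of 6 H1 promoters and in 16.7% of histone promoters, against 7.18% of all. These motifs share no full copy with one another, and a match is a description of letters, not of a bound site. The windows of 6 H2A-H2B neighbour pairs in cluster 1 overlapped on opposite strands, so such pairs share promoter letters and are not independent. The 150 bases before the start are printed for 1 gene of each type, the gene with the smallest unadjusted p of its type among those with a promoter entry, in 5′ to 3′ direction of the gene; capitals mark any of the 4 motifs on either strand.
Hist1h1a (H1, chr13:23763518-23763667, plus strand): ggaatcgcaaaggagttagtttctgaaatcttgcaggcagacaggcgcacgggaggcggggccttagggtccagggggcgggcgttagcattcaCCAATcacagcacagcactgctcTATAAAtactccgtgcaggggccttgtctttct
Hist1h2ag (H2A, chr13:22042950-22043099, minus strand): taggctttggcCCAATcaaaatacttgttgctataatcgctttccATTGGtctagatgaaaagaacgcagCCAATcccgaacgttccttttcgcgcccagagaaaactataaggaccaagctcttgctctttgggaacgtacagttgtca
Hist1h2bg (H2B, chr13:23571250-23571399, plus strand): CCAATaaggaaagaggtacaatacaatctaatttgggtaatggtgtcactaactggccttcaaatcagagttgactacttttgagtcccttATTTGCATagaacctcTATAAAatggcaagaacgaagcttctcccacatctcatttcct
Hist2h3b (H3, chr3:96268504-96268653, plus strand): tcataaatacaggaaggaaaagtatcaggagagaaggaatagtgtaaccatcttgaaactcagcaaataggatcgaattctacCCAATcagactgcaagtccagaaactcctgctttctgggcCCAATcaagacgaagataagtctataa
Hist1h4b (H4, chr13:23756787-23756936, plus strand): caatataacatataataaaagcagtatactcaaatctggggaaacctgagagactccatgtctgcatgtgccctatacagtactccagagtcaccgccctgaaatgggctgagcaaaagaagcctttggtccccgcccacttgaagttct
The Hist1h1a promoter holds CCAAT 56 and TATAAA 33 bases before the start, and that of Hist1h2bg holds the octamer at 59 and TATAAA at 43 bases. The Hist1h2ag promoter holds CCAAT on either strand at 3 places and that of Hist2h3b at 2, while these 150 bases of Hist1h4b hold none of the 4 motifs.

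The arrays gave between 15396 and 16587 detected probes each, and a mean raw intensity between 262.1 and 507.1. Smchd1 was low on every null array, at 5.05 ± 0.35 in null and 9.47 ± 0.14 in wildtype on the log2 scale (SD, n = 6 each), a change of -4.42 (SE 0.14, limma adjusted p = 1.339e-09). Of 12 pre-B cell markers 10 were tested and none was called. All 10 had a negative change, with a median of -0.34, where 41.84% of all tested probes were positive. At an unadjusted limma p under 0.05 stood 3 of the 10, against 18.1% of all tested probes. Of these 3, Il7r averaged 7.55 in null and 8.54 in wildtype (change -0.99, limma adjusted p = 0.10). Rag1 averaged 7.33 in null and 8.25 in wildtype (-0.92, limma adjusted p = 0.12). Blnk averaged 9.86 in null and 10.11 in wildtype (-0.25, limma adjusted p = 0.20). Cd79b, not among the 3, averaged 13.22 in null and 13.42 in wildtype. Rag2 and Cd79a were not tested. The mean of the pre-B markers against the wildtype mean ran from -1.26 on null 5 to 0.56 on null 4. On wildtype arrays it ran from -0.19 to 0.16. On null 4 Vpreb1 was at 11.07 and Igll1 at 11.44, against wildtype means of 8.40 and 9.25. Markers of other cells stood high on some null arrays. The mean of 10 of 11 T and NK cell markers reached 1.99 on null 5, and that of 6 of 8 plasmacytoid dendritic cell markers 2.30 on null 5, against at most 0.23 and 0.51 on wildtype arrays; null 6 had 1.16 and 1.49. On null 3 the mean of 9 of 10 myeloid markers reached 3.38 and that of 4 of 9 erythroid markers 1.88. On wildtype arrays these were at most 0.40 and 0.78. On the other null arrays the myeloid mean ran from -0.51 to 0.49. The erythroid mean was negative on all of those, from -1.27 to -0.37. The mean of 6 of 8 plasma cell markers reached 0.77 on null 5, against at most 0.11 on wildtype arrays. Values without null 5, or without null 3 and null 5, are given below for those named histone probes that they moved by over 1.5 times or turned in sign and whose change was over 0.1 in size.

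Most histone probes gave a signal in both genotypes. Of the 89 probes 70 were detected (detection p under 0.05) on all 12 arrays and 15 on none. The 73 probes detected on at least 3 arrays were tested, and they cover 51 of the 59 genes. No probe was detected on 5 or more arrays of a genotype and on at most 1 of the other. The 8 genes without a tested probe were the linker histones Hist1h1d and Hist1h1e, the testis-specific H1, H2A and H2B genes Hist1h1t, Hist1h2aa and Hist1h2ba, and all 3 cluster 3 genes, Hist3h2a, Hist3h2ba and Hist3h2bb. Of these only Hist3h2bb, which RefSeq lists as a transcribed pseudogene, was detected on any array, and that on 2. The 16 untested probes lay between 4.24 and 5.19 on the log2 scale, so these genes were not measurable here, and nothing follows about their transcripts.

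None of the 73 tested histone probes passed an adjusted p of 0.05 between null and wildtype (limma, Benjamini-Hochberg over all 17607 tested probes), where 1.22% of all tested probes did, 0.534% as higher and 0.687% as lower in null. The smallest adjusted p was 0.1456. At an unadjusted p under 0.05 stood 3 of the 73, namely Hist2h2be, Hist1h2ag and Hist1h2bg, against 18.1% of all tested probes. On 0 of the 73 did the 6 null and 6 wildtype arrays fail to overlap, against 3.01% of all tested probes. The changes, null minus wildtype, were positive for 37 probes and negative for 36, where 41.84% of all tested probes were positive. The median change over all 89 probes was -0.0038, against -0.0056 over all probes of the array, and over the tested probes 0.0034, against -0.036. The 95% interval of the change lay within 0.5 log2 units of 0 for 58 of the 73 probes (79.45%), against 69.17% of all tested probes. It lay within 1 log2 unit for 72 (98.63%), against 93.6%; the exception was Hist1h2bg, whose interval reached 1.01. For most members a change over that size is thus outside the interval, while smaller changes in either direction are within it.

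**Figure D1:**
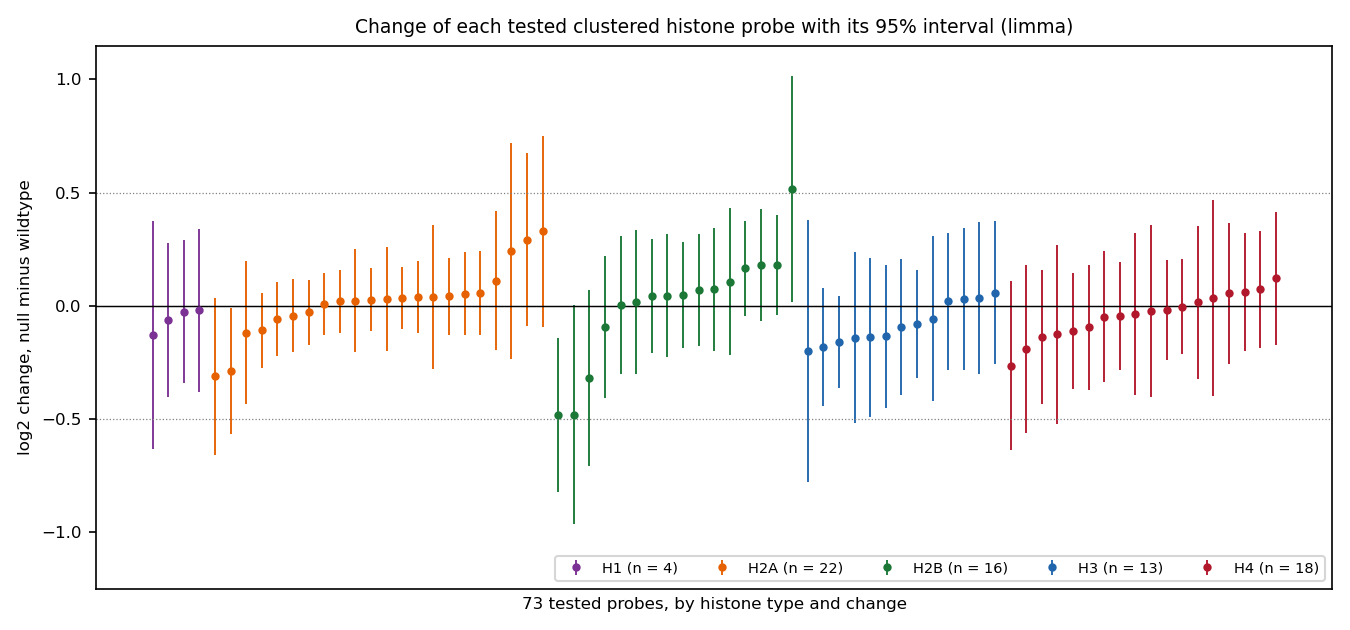
Log2 change, null minus wildtype, of each of the 73 tested clustered histone probes, sorted within histone type; points are limma estimates and bars 95% intervals (6 arrays a genotype), and dotted lines mark 0.5 log2 units. Changes run from -0.48 to 0.52, and all but 3 intervals cross 0.

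H1 linker histones were read by 4 tested probes of 3 genes, all with a negative change, from -0.13 to -0.02, and none called. Hist1h1a, which encodes H1.1, had a lowest, median and highest level of 5.61, 6.33 and 7.14 on null arrays, against 6.05, 6.67 and 6.87 on wildtype arrays. The null arrays spanned the wildtype range at both ends. The change was -0.13 (SE 0.23, limma adjusted p = 0.81), and 0.032 without null 5, the lowest array. Hist1h1c, which encodes H1.2, had levels of 9.46, 9.86 and 10.33 on null arrays, against 9.68, 9.95 and 10.06 on wildtype arrays by its brighter probe. Null 2 and null 3 lay above every wildtype array, and null 4 and null 6 below every one, which left a change of -0.026 (SE 0.15, limma adjusted p = 0.95). The other Hist1h1c probe gave -0.064.

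H2A genes held the brightest probes, which does not rank their transcripts, since probes differ in how they bind. All 13 histone probes in the top 1% of the array's probes by mean level were H2A, with raw intensities between 3171.6 and 25912.7. The 6 brightest histone genes were Hist1h2ai, Hist1h2ao, Hist1h2af, Hist1h2ak, Hist1h2ah and Hist2h2ac, all core H2A genes. Their changes lay between -0.06 and 0.06 with SEs of at most 0.086. Hist1h2ai, for example, had a lowest, median and highest level of 13.93, 14.13 and 14.22 on null arrays, against 13.91, 14.06 and 14.21 on wildtype arrays. The median SD over the 12 arrays was 0.093 for the 13 probes in the top 1%, against 0.26 for the other 60 tested histone probes. Hist1h2ag, the dimmest of the 13, had an SD of 0.27. Whether the signal is compressed at this end of the intensity range was not tested.

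The H2A genes with the smallest p-values were other ones, and none was called. Hist1h2ag had levels of 12.02, 12.62 and 12.91 on null arrays, against 12.74, 12.80 and 13.08 on wildtype arrays. Of the null arrays only null 1 lay within the wildtype range, and null 5 lay lowest. The change was -0.29 (SE 0.13, limma adjusted p = 0.26), and 0.820-fold on the linear scale. It was -0.18 without null 5 and -0.17 without null 3 and null 5. Hist2h2ab had levels of 11.30, 12.18 and 12.43 on null arrays, against 12.21, 12.34 and 12.63 on wildtype arrays, again with null 5 lowest, and a change of -0.31 (SE 0.16, limma adjusted p = 0.32). It was -0.16 without null 5 and -0.18 without null 3 and null 5. Within the BeadChips it was -0.63 on BeadChip 1 and 0.0098 on BeadChip 2. Hist2h2aa1 had a positive change on all 3 of its probes, small on the dimmest. Its brightest probe, at 7.73, 8.04 and 8.93 on null arrays against 7.74, 7.98 and 8.01 on wildtype arrays, stood out on null 3 (8.67) and null 5 (8.93), the arrays on which every list of other cells' markers peaked. Null 6, whose T and NK and plasmacytoid dendritic marker means were 1.16 and 1.49, lay at 7.95 on this probe, within the wildtype range. With all arrays the change of Hist2h2aa1 on this probe was 0.29 (SE 0.18, limma adjusted p = 0.40). Without null 3 and null 5 it was 0.0055 (SE 0.092, limma adjusted p = 0.99). Its second probe had levels of 5.83, 6.10 and 7.05 on null arrays, against 5.65, 5.87 and 6.51 on wildtype arrays, with null 5 highest. That probe's change was 0.33 (SE 0.20, limma adjusted p = 0.39), and 0.093 without null 3 and null 5. The dimmest Hist2h2aa1 probe gave 0.023 with all arrays. Hist2h2aa2, not among the named probes, was also highest on null 5 (10.34). Its change was 0.11, and -0.029 without null 3 and null 5. Whether other cells contributed to these levels was not tested.

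H2B probes held the largest changes in either direction among the members. Hist2h2be had 2 probes that differed. On the dimmer one the lowest, median and highest level were 6.03, 6.38 and 6.83 on null arrays, against 6.54, 6.93 and 7.13 on wildtype arrays. Null 1, null 3, null 4 and null 5 lay below every wildtype array, and null 2 and null 6 lay within the wildtype range. The change was -0.48 (SE 0.16, 95% interval -0.82 to -0.14, limma adjusted p = 0.1456), of similar size on BeadChip 1 (-0.45) and BeadChip 2 (-0.52). It was -0.34 without null 3 and null 5, and -0.24 with no background correction. On the brighter probe the levels were 9.98, 10.41 and 10.69 on null arrays, against 10.02, 10.33 and 10.78 on wildtype arrays. That change was 0.0034 (SE 0.14, limma adjusted p = 0.99), so the negative value belongs to 1 of the 2 probes of this gene. Hist1h2bc had levels of 7.47, 8.72 and 8.88 on null arrays, against 8.63, 8.86 and 9.14 on wildtype arrays. Null 4 (7.47) and null 5 (7.87) stood below all wildtype arrays, and the other null arrays lay within the wildtype range. Its change of -0.48 had an SE of 0.23 and a limma adjusted p of 0.28. It was -0.74 on BeadChip 1, which holds null 4 and null 5, and -0.23 on BeadChip 2. It was -0.29 without null 4, -0.37 without null 5 and -0.11 without both. Hist1h2bg, a dim probe, had levels of 5.22, 5.93 and 6.45 on null arrays, against 4.95, 5.30 and 5.99 on wildtype arrays. Null 1 and null 2 lay above every wildtype array. The change was 0.52 (SE 0.23, 95% interval 0.02 to 1.01, limma adjusted p = 0.26), and 1.43-fold on the linear scale. With no background correction it was 0.18.

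No H3 or H4 probe was called, and their direction turned between the BeadChips. Of 13 tested H3 probes 9 were negative, with a median change of -0.093, and of 18 tested H4 probes 12, with a median of -0.031, beside a median of -0.036 over all tested probes; the H4 median is thus near that of all probes. On BeadChip 2 alone all 13 H3 and 17 of 18 H4 probes were positive. Hist2h3b had a lowest, median and highest level of 11.42, 11.74 and 11.91 on null arrays, against 11.67, 11.86 and 11.95 on wildtype arrays. Null 4 and null 5 lay below every wildtype array. The change was -0.16 (SE 0.094, limma adjusted p = 0.38). Hist2h3c1 had levels of 10.82, 11.06 and 11.56 on null arrays, against 11.20, 11.34 and 11.43 on wildtype arrays by its brighter probe, with a change of -0.18 (SE 0.12, limma adjusted p = 0.45), and -0.14 by the other. Without null 3 and null 5 these were -0.12 and -0.0092. For H4, Hist2h4 had levels of 6.60, 7.10 and 7.46 on null arrays, against 6.71, 7.50 and 7.62 on wildtype arrays, where wildtype 6 stood apart at 6.71. Its change was -0.26 (SE 0.17, limma adjusted p = 0.44), and -0.17 without null 5. Null 3 (6.95) also lay below the null mean of 7.09, so the change was smaller still without null 3 and null 5. Hist1h4b and Hist1h4f gave -0.19 and -0.14 on their probes of smallest p, both with overlapping arrays, and -0.094 and -0.040 without null 3 and null 5.

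**Figure D2:**
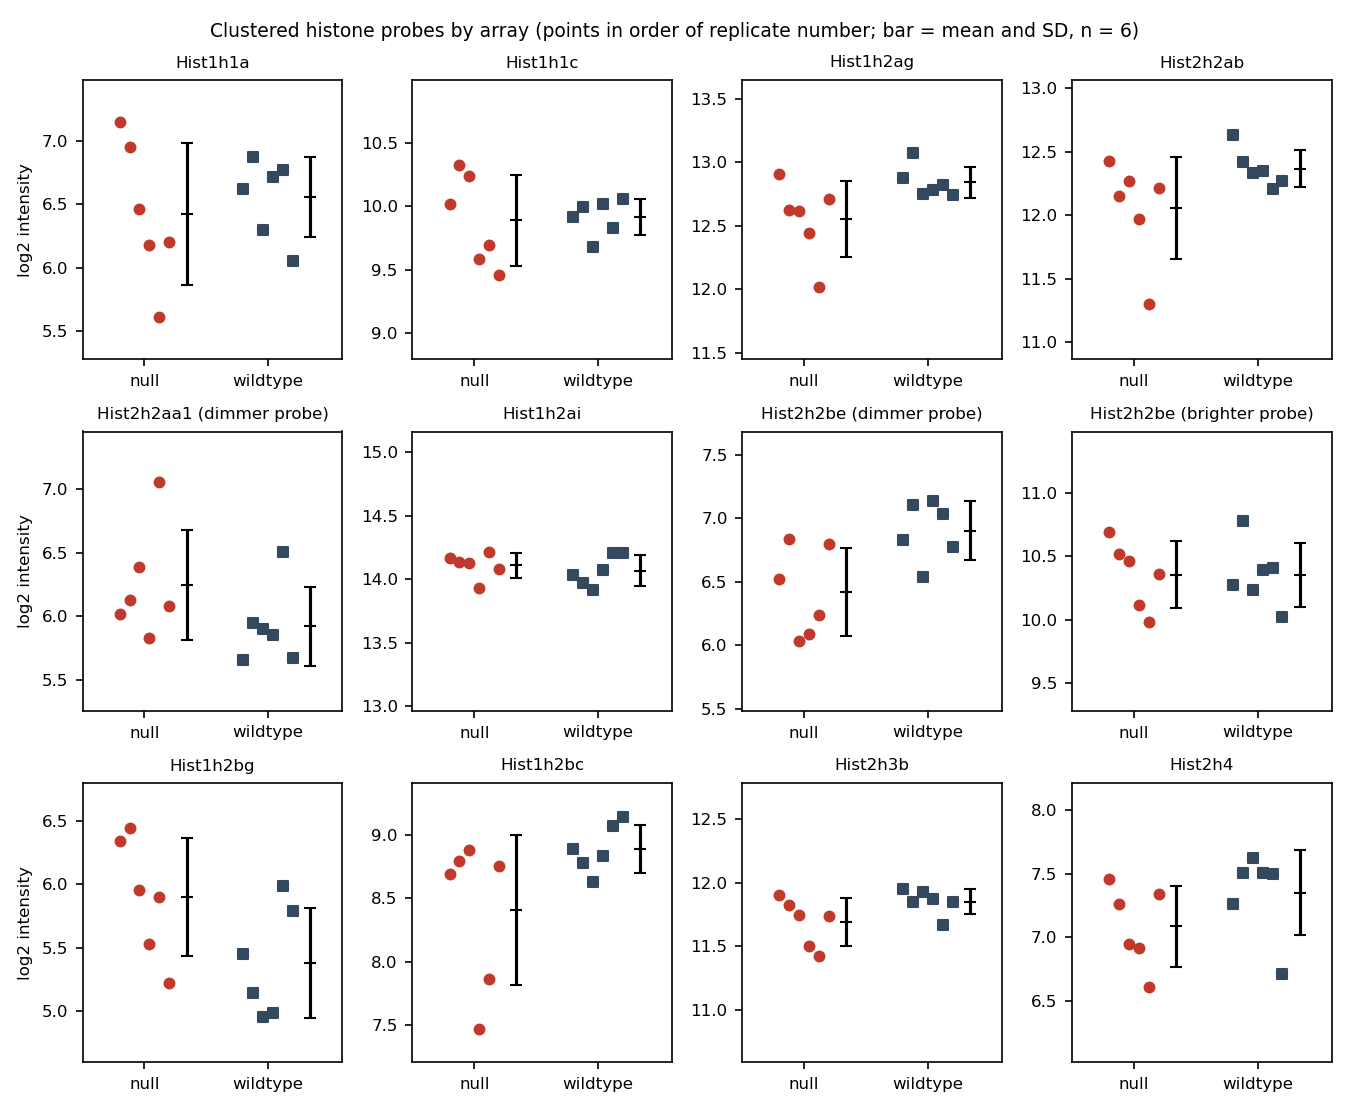
Log2 intensity by array for 12 histone probes, null left of wildtype, each panel spanning 2.2 log2 units; points run by replicate number and the bar gives the mean and SD (n = 6). Hist1h2ai varies little, null 4 and null 5 lie low for Hist1h2bc, and the dimmer and the brighter Hist2h2be probe differ in their change.

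Different probes of a gene mostly gave close values. Of the 18 genes with more than 1 tested probe, the changes of a gene's probes spread by a median of 0.056 log2 units and had opposite signs in 6 genes. The spread was over 0.2 in 4 genes, and largest for Hist2h2be at 0.49. The next, Hist1h2be, was singled out after its values were seen: its dimmest probe, detected on 8 of 12 arrays, gave -0.32 and its others 0.043 and 0.073.

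Position within the clusters did not set apart any stretch by its calls, since there were none. Cluster 1 had a median change of -0.0038 over 57 tested probes, and cluster 2 of -0.046 over 14. Hist4h4 gave 0.035 and 0.055 on its 2 probes. Cluster 1 falls into 3 blocks along chromosome 13, with medians of -0.022 over 16, 0.034 over 7 and -0.0055 over 34 tested probes. Of the 6 H2A-H2B pairs whose promoter windows overlap, 5 had both genes tested, and in 3 the pair's changes had the same sign. The pair of Hist1h2ag (-0.29) and Hist1h2bj (0.18) and that of Hist1h2ae (-0.12) and Hist1h2bg (0.52) had opposite signs, although the windows of a pair share 252 and 279 bases. None of these 4 genes was called.

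**Figure D3:**
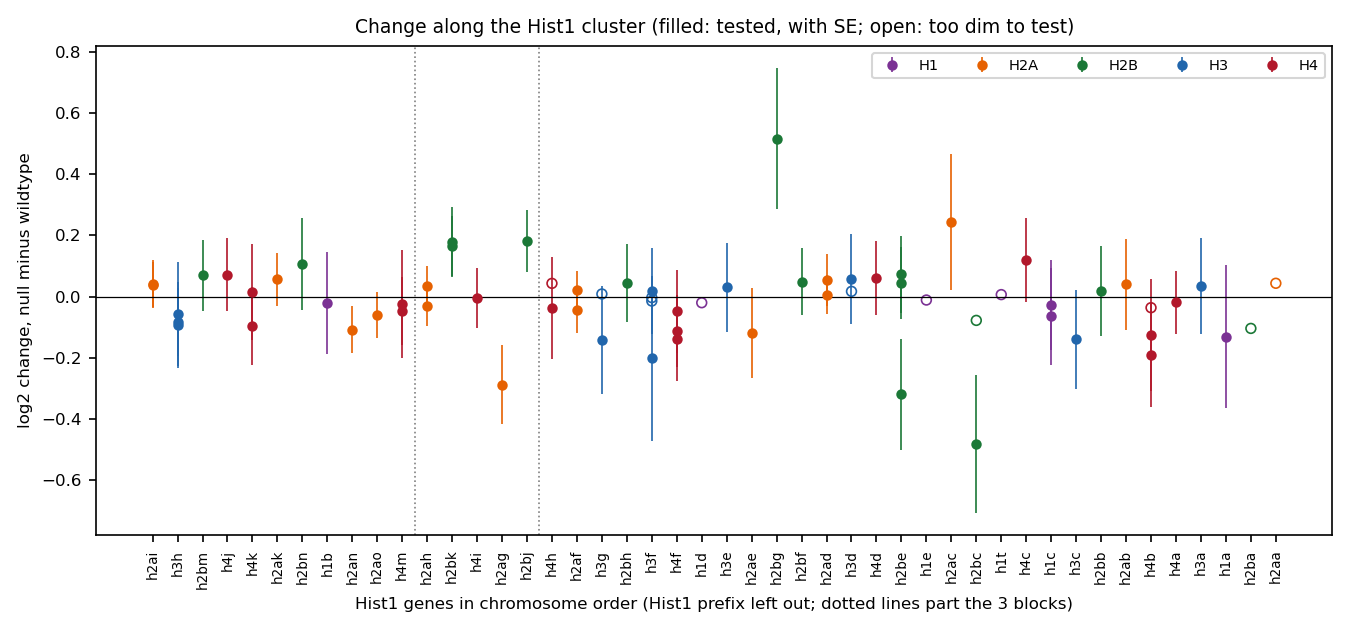
Log2 change, null minus wildtype, along the Hist1 cluster in chromosome order, coloured by histone type; filled points are tested probes with their SE, open points probes too dim to test, and dotted lines part the 3 blocks. Positive and negative changes are interspersed along the cluster, and Hist1h2bg (0.52) and Hist1h2bc (-0.48) lie farthest from 0.

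The spread between arrays of a genotype was shared by many members. Over the 60 tested histone probes outside the top 1%, null 1 was the highest null array on 43, while null 4 was the lowest on 27 and null 5 on 24. Among wildtype arrays, wildtype 2 was highest on 26 and wildtype 6 lowest on 42. The median difference of these 60 probes from their wildtype means was 0.32 on null 1, 0.16 on null 2 and -0.041 on null 3, and -0.31 on null 4, -0.24 on null 5 and -0.034 on null 6. On wildtype arrays it ran from -0.27 on wildtype 6 to 0.16 on wildtype 2. For H2B, H3 and H4 alike null 1 was the highest null array, null 4 or null 5 the lowest and wildtype 6 the lowest wildtype array, with H3 at 0.37 on null 1 and -0.36 on null 5, and H4 at 0.25 on null 1 and -0.40 on wildtype 6. The median of the 13 H2A probes in the top 1% lay between -0.043 and 0.060 on every array, although Hist1h2ag among them was lower on null 5. The median of the S phase genes was -0.074 on null 1, -0.021 on null 2 and -0.14 on null 4. It was lowest on null 5, at -0.50. Null 5 was also the lowest null array for H3, while null 4 was the lowest for H2B and H4. Mean raw intensity was 377.7 on null 1, 262.1 on null 4, 311.4 on null 5 and 373.4 on wildtype 6, and null 4, the dimmest array, lies in section F of its BeadChip, as wildtype 6 does. Wildtype 3, at a mean raw intensity of 298.9, had a median difference of -0.045 over the 60 probes. The part of S phase content, intensity and section in these levels was not tested.

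**Figure D4:**
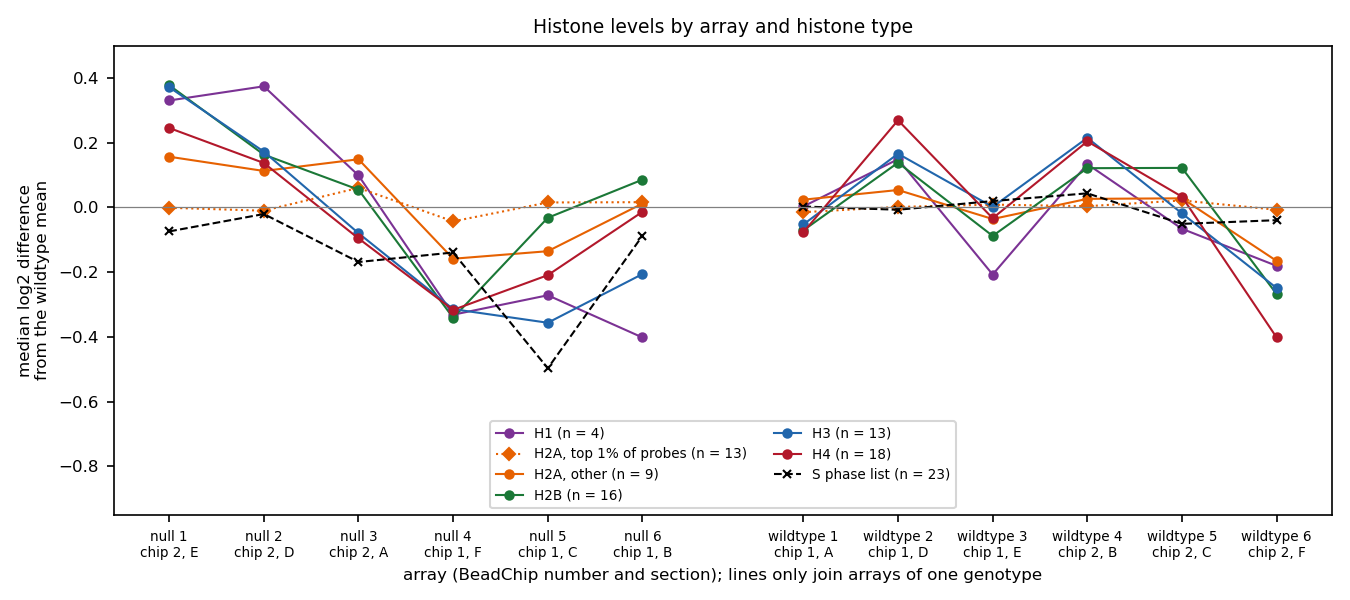
Median log2 difference from the wildtype mean on each array, for the tested probes of each histone type and for the S phase list, null arrays left of wildtype arrays, with BeadChip number and section below. Null 1 is high and null 4 low for all types but the bright H2A probes, wildtype 6 is low, and the S phase list is lowest on null 5 (-0.50).

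The change of most members had opposite signs on the 2 BeadChips. BeadChip 2 held null 1 to 3 and wildtype 4 to 6, and BeadChip 1 held null 4 to 6 and wildtype 1 to 3. Over the 60 tested probes outside the top 1%, null 3 on BeadChip 2 and null 6 on BeadChip 1 had close medians (above). Over these 60 the null arrays farthest apart were null 1 and null 2 against null 4 and null 5. By type null 3 and null 6 differed, with H1 at 0.099 on null 3 and -0.40 on null 6. H3 was at -0.080 and -0.21, and H2A outside the top 1% at 0.15 and 0.012. Null 6 was the higher of the 2 for H2B (0.055 and 0.086) and H4 (-0.096 and -0.014). On BeadChip 1 alone the median change of the 73 tested probes was -0.18, with 56 negative, and 59.32% of all tested probes were negative there. On BeadChip 2 alone the median was 0.16, with 63 positive, where 47.28% of all were. All 4 H1 and all 13 H3 probes, and 17 of 18 H4 probes, were negative on BeadChip 1, and the same numbers were positive on BeadChip 2. Among the 13 brightest H2A probes 6 were negative on BeadChip 1 and 7 positive on BeadChip 2. No histone probe was called on BeadChip 1 (background 0.0682%) or on BeadChip 2 (background 0.244%). The difference of the change between BeadChips itself was called on none of the 73 (limma, background 0%), with 14 at an unadjusted p under 0.05 against a background of 5.72% and a smallest adjusted p of 0.85. With BeadChip as a block none was called (background 1.73%), nor with the BeadChip section as a block (background 0.983%) or with both blocks (background 1.99%).

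The genes that make, process and carry histones gave few calls. Of 28 genes for histone mRNA production 23 were tested and none was called, where 1.22% of all tested probes were. At an unadjusted limma p under 0.05 stood 5 of the 23, where 18.1% of all tested probes did. The median change was -0.15, against -0.036 over all tested probes. Cstf2, a cleavage factor subunit shared with polyadenylation, averaged 10.82 ± 0.12 in null and 11.07 ± 0.08 in wildtype (limma adjusted p = 0.12). Pou2f1, which encodes the octamer-binding Oct1, averaged 7.95 ± 0.26 in null and 8.29 ± 0.09 in wildtype (limma adjusted p = 0.15). Zcchc11, a uridylyltransferase, averaged 4.76 ± 0.12 in null and 5.19 ± 0.36 in wildtype (limma adjusted p = 0.15). Its levels lay near background, since the lowest detected level of an array averaged 4.93. For these 3 genes the brightest tested probe is given, and none of the 41 tested probes of the list was called. Slbp, the stem-loop binding protein, and Npat, the coactivator of histone transcription, had no tested probe. Of 29 histone chaperone and import genes 25 were tested, and none of their 43 tested probes was called. On the brightest tested probe of each gene, which is given here, the median change was -0.081. The smallest p-values were those of Rbbp4, a chaperone subunit of CAF-1, at -0.53, Ipo4, an importin of H3 and H4, at 0.30, and Anp32e, the chaperone of H2A.Z, at -0.24.

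Of the histone variants coded outside the clusters, some of which are made throughout the cell cycle, 9 of 18 genes were tested. H2afv was the 1 called, where 1.22% of all tested probes were called. H2afv, which encodes the H2A.Z.2 form, had levels of 12.14, 11.73, 11.97, 11.56, 11.36 and 11.80 on null 1 to 6, against 12.24, 12.45, 12.49, 12.25, 12.28 and 12.38 on wildtype 1 to 6. All null arrays lay below all wildtype arrays, with null 5 lowest. The genotypes failed to overlap, in either direction, on 3.01% of all tested probes. H2afv fell by 0.59 on the log2 scale (SE 0.12, limma adjusted p = 0.0343), and by 0.54 without null 3 and null 5 (adjusted p = 0.0439). The call was lost when null 4 or 6 or any wildtype array was left out, with adjusted p between 0.05327 and 0.08955. Its second probe gave -0.48 (limma adjusted p = 0.11). On the brightest probe of each gene all 9 tested genes of this list had a negative change, with a median of -0.22. Of all tested probes 41.84% were positive, with a median of -0.036. H2afz, the main H2A.Z gene, gave -0.12 (limma adjusted p = 0.59), and the H3.3 genes H3f3a and H3f3b gave -0.24 and -0.22 (adjusted p = 0.20 and 0.21). The dimmer H3f3b probe went the other way, at 0.53 (limma adjusted p = 0.50).

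Of 24 S phase genes 23 were tested and none was called on its brightest tested probe, the one given below unless stated. Of these 23 genes 21 were negative, where 41.84% of all tested probes were positive. The median change was -0.21, beside 0.0034 for the clustered histone probes and -0.036 for all tested probes. Rfc4, a clamp loader subunit, averaged 10.32 ± 0.24 in null and 10.76 ± 0.06 in wildtype (SD, n = 6 each), with a change of -0.44 (SE 0.10, limma adjusted p = 0.059). Cdc6, a replication licensing factor, gave -0.34 and the ligase Lig1 -0.35, neither called. A dimmer probe of Rrm2, the small subunit of ribonucleotide reductase, fell by 0.50 on the log2 scale (SE 0.11, limma adjusted p = 0.047), to 5.30 ± 0.23 in null against 5.81 ± 0.15 in wildtype. Its brightest probe gave -0.25 (adjusted p = 0.36), and the dimmer probe's adjusted p was 0.1051 without null 3 and null 5. It kept its call in 2 of the 12 fits that left out 1 array, those without null 2 and without wildtype 5. The S phase mean was lowest on null 5, the array on which pre-B markers were lowest too; the part of cell composition in these values was not tested.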

How the data were processed

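RNA of 6 Smchd1 null and 6 wildtype samples was measured on 2 Illumina BeadChips, 3 arrays of each genotype on each. The authors deposited bead intensities without normalization and a detection score as a fraction for each probe (GenomeStudio 1.8.0, per the file headers). The authors' processed log2 values were made with neqc in limma 3.12.1 and R 2.15.1, per the submitters' processing notes and the deposited readme. Here neqc was run again from the intensities (limma 3.58.1, R 4.3.3): normexp with 936 negative control probes, quantile normalization and an offset of 16. The result matched the authors' log2 values for all 45281 probes within 1e-06. Probes detected (score over 0.95, a p under 0.05) on at least 3 arrays were tested with lmFit and eBayes, Benjamini-Hochberg adjusted over 17607 probes, and the fit was tested on simulated data. A change is null minus wildtype on log2. The number of arrays limits the precision.

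Members and gene lists were chosen with earlier results of these data known. Named histones were the 3 probes of smallest p of each type, the 6 brightest genes and any called probe; of each related list, the called genes or the 3 of smallest p. Replicate numbers did not pair samples: the correlation of same-numbered deviations ran from -0.29 to 0.085. Alternatives changed the background correction, scaling, filter, blocks, weights, prior and arrays used. Probe sequences were not used here.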

Additional observations from a re-analysis of the deposited data

Results flagged for a closer look

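For 2 named histone probes 1 of the 6 arrays of a genotype lay far from the others by Dixon's ratio at its 95% critical value. On the second Hist2h2aa1 probe wildtype 5, at 6.5053, stood above the other wildtype arrays. On the Hist2h3b probe wildtype 5, at 11.6697, stood below them. Chance gives such a ratio in about 1 in 20 groups.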

How the results depend on the processing

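The count of called histone probes was 0 under each of the 28 alternatives. Over its 26 alternatives the median histone change ran from -0.1088 on BeadChip 1 to 0.0996 on BeadChip 2, so its sign was not stable. All 26 values lay within the spread between single arrays, which is so wide that this says little about stability. The changes of the 21 named histone probes were recomputed under each alternative that applied, which gave 583 values. Of these values 27 had the other sign and none was called. The count over all probes, 215, was 92 with median scaling, 101 with no filter, 104 with a replicate block, 12 on BeadChip 1, 43 on BeadChip 2, 380 with array weights, 350 with BeadChip and section as blocks, and 68 to 319 without 1 array. The called probes of the gene lists numbered 2, H2afv and Rrm2, and 0 with median scaling, with no filter, on BeadChip 1, on BeadChip 2 or with the section as a block. They numbered 1 with the replicate block, without null 3 and null 5, with 1 probe per gene or with both chip blocks, and 0 to 3 without 1 array. The cause was not tested. The section blocks, the fit without null 4 and null 5 and the difference between BeadChips were chosen after seeing the data. Dim probes near background and the brightest H2A probes limit what could be seen.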
